A study of Mus musculus with 12 samples.

Results

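The 9 genes described here, Src, Fyn, Lyn, Fgr, Yes1, Lck, Csk, Syk and Btk, encode cytoplasmic tyrosine kinases, and they were taken by symbol from the 41128 genes of a count table of mouse bone marrow PreMegEs (pre-megakaryocyte-erythroid progenitors). Src, Fyn, Lyn, Fgr, Yes1 and Lck belong to the Src family, Csk is the kinase that restrains that family, Syk is the kinase that docks on phosphorylated receptor tails, and Btk is a kinase of the Tec family. RNA-Seq was carried out on 4 groups of PreMegEs of 12 to 16 week old C57BL/6 mice, with 3 libraries per group and cells of 3 mice pooled in each library. The study describes RNA-Seq of the WT, P2- and P2+ groups only, so the age and the pooling are assumed to be the same for KO. WT cells were wild type and not divided further. The P2- and P2+ cells came from Runx1 P1-GFP::P2-hCD4/+ mice, in which a single Runx1 allele carries GFP at the distal promoter P1 and a truncated human CD4 (hCD4) at the proximal promoter P2, and P1+ PreMegEs of these mice were sorted by the absence (P2-) or presence (P2+) of hCD4. KO cells came from RUNX1C knockout mice, which lack the Runx1 isoform made from P1. The labels give no treatment in any group, and all groups were sorted as PreMegEs. Both reporter fractions carry an altered Runx1 allele that WT cells do not, so in comparisons with WT the sorted fraction and the reporter genotype cannot be told apart.

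Src family kinases sit at the inner face of the plasma membrane and act directly below integrins and the collagen and antibody receptors of blood cells. Csk holds them inactive by phosphorylating a tyrosine in their C-terminal tail. Once released, they phosphorylate the tyrosine motifs of receptor chains such as Fc receptor gamma, Syk binds there, and Syk with Btk activates phospholipase C gamma. In megakaryocytes and platelets this pathway links collagen and fibrinogen binding to spreading, granule release and aggregation.

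The site that Csk acts on lies at the end of the coding sequence of each Src family kinase. The last bases of these coding sequences, up to and including the stop codon, are shown to compare this regulatory end in the 6 family members, with the last tyrosine codon in capitals. They were read 5′ to 3′ on the coding strand from GENCODE vM21 transcripts of GRCm38 (mm10), and each lies in a single coding exon.

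Src (chr2:157469926-157469961, plus strand): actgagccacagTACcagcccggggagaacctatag
Fyn (chr10:39563937-39563972, plus strand): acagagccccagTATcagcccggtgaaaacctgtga
Lyn (chr4:3789915-3789944, plus strand): acagaagggcagTATcagcagcaaccgtag
Fgr (chr4:133000308-133000343, plus strand): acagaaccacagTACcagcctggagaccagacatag
Yes1 (chr5:32684724-32684759, plus strand): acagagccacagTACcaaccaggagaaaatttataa
Lck (chr4:129548798-129548827, minus strand): acagagggccagTACcagccccagccttga

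In Src, Fyn, Fgr and Yes1 the capitals were followed by 6 codons before the stop codon, and in Lyn and Lck by 4 codons. The tyrosine was codon 529 of 535 in Src, 528 of 534 in Fyn, 487 of 491 in the Lyn transcript used and 505 of 509 in Lck.

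Promoter windows of 250 bases before the RefSeq start (GRCm38.p6) were at hand for 8 of the 9 genes, as 11 windows, and Lyn had none. They were searched on both strands for the letters TGTGGT (Runx), GATAA (GATA) and CCGGAA (Ets), which do not overlap each other in the windows that held a match, and are held by 14.0%, 22.6% and 12.0% of all 32851 RefSeq windows. The Runx letters were found in 1 of the windows of Lck and in Yes1, the GATA letters in 1 window of Syk, and the Ets letters in Fgr and in Yes1. None of the searched letters lay in the windows of Src, Fyn, Csk or Btk. For Src, Fyn, Syk and Lck, the stretch of a window that lies before the first annotated exon within that window is shown because these 4 genes differed the most between P2+ and P2- PreMegEs among those that passed the test, with matches in capitals. In the GENCODE models the stretches of Src, Fyn and Syk lie in an intron of longer transcripts, and that of Lck lies before the gene. A further window each of Syk and Lck, both inside the gene and without a match, is not shown. A match is a description of the sequence and not of binding.

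Src (chr2:157424043-157424115, plus strand): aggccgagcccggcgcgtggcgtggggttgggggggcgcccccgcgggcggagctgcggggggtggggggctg
Fyn (chr10:39369549-39369763, plus strand): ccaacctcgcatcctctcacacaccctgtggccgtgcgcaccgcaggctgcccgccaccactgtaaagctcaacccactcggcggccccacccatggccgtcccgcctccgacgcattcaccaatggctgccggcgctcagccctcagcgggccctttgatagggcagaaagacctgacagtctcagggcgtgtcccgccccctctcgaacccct
Syk (chr13:52596632-52596852, plus strand): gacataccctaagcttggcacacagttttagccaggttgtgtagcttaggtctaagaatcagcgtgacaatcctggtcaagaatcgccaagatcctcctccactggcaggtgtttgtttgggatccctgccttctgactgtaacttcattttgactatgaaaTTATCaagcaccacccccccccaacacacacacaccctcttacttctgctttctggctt
Lck (chr4:129573642-129573891, minus strand): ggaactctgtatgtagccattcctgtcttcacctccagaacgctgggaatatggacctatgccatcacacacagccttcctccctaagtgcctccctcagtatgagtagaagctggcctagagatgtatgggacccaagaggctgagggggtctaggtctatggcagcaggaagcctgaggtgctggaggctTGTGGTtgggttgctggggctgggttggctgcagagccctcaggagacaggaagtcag

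The libraries held between 10726098 and 14445026 counts each. Levels are given as CPM, which are counts scaled to the library size by edgeR's TMM method over the 12 libraries, and a count of 0 allows a level of up to 0.207 to 0.288 CPM (3 counts, counting error only). RPKM divides CPM by the exonic length in kilobases and is used to compare genes with each other. Genes that reached 1 CPM in 3 or more of the 6 libraries of a comparison entered edgeR's quasi-likelihood test, whose p-values were adjusted over all genes tested (Benjamini-Hochberg), and a gene is said to be changed at an adjusted p under 0.05. SE stands for the standard error of a log2 fold change. The comparisons share libraries with each other, so their values stand side by side and are not independent. All 5 genes of the PreMegE gate and identity (Kit, Slamf1, Gata2, Gata1 and Zfpm1) were detected in every group, with a summed level of between 2559 and 3096 CPM per library. Of these genes, 1 was higher and 2 were lower in P2+ than in P2- cells. Against WT, 1 was lower in P2+ cells, 2 were lower in P2- cells, and 3 were higher and 1 lower in KO cells. KO cells also had 3 higher and 1 lower than P2+ cells, and no call against P2- cells. Runx1 itself, counted over both promoters together, stood at 341, 381 and 357 CPM in KO and 363, 387 and 357 CPM in WT PreMegEs (log2 fold change -0.05 ± 0.06 SE, adjusted p = 0.702 in edgeR), and such counts do not show whether the P1 isoform is lost. It had 659, 621 and 613 CPM in P2+ and 213, 202 and 217 CPM in P2- libraries (log2 fold change 1.59 ± 0.07 SE, adjusted p = 2.34e-06 in edgeR). Runx1 was also changed in P2+ against WT (0.78), P2- against WT (-0.81), KO against P2- (0.77) and KO against P2+ (-0.82). Its part in the kinase differences was not tested. Immediate early genes, which respond to cell handling, reached a summed 12099 CPM in P2- replicate 2 and 7990 CPM in P2+ replicate 2, against at most 1155 CPM in WT and 507 CPM in KO libraries.

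Per unit of length, Csk and Syk were the most abundant of the 9 transcripts, followed by Lyn and Btk, then Fyn, with Src, Lck, Yes1 and Fgr far below. The mean level of Csk was between 69.1 and 72.2 RPKM in the 4 groups, that of Syk between 32.3 and 61.0 RPKM, that of Lyn between 23.6 and 33.5 RPKM, and that of Btk between 22.0 and 26.2 RPKM. Fyn lay between 8.84 and 20.2 RPKM. Src reached 2.34 RPKM in P2+ and 0.478 RPKM in P2- PreMegEs, so its transcript remained scarce in every group. Lck did not exceed a group mean of 0.962 RPKM, Yes1 0.207 RPKM and Fgr 0.158 RPKM.

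**Figure D1:**
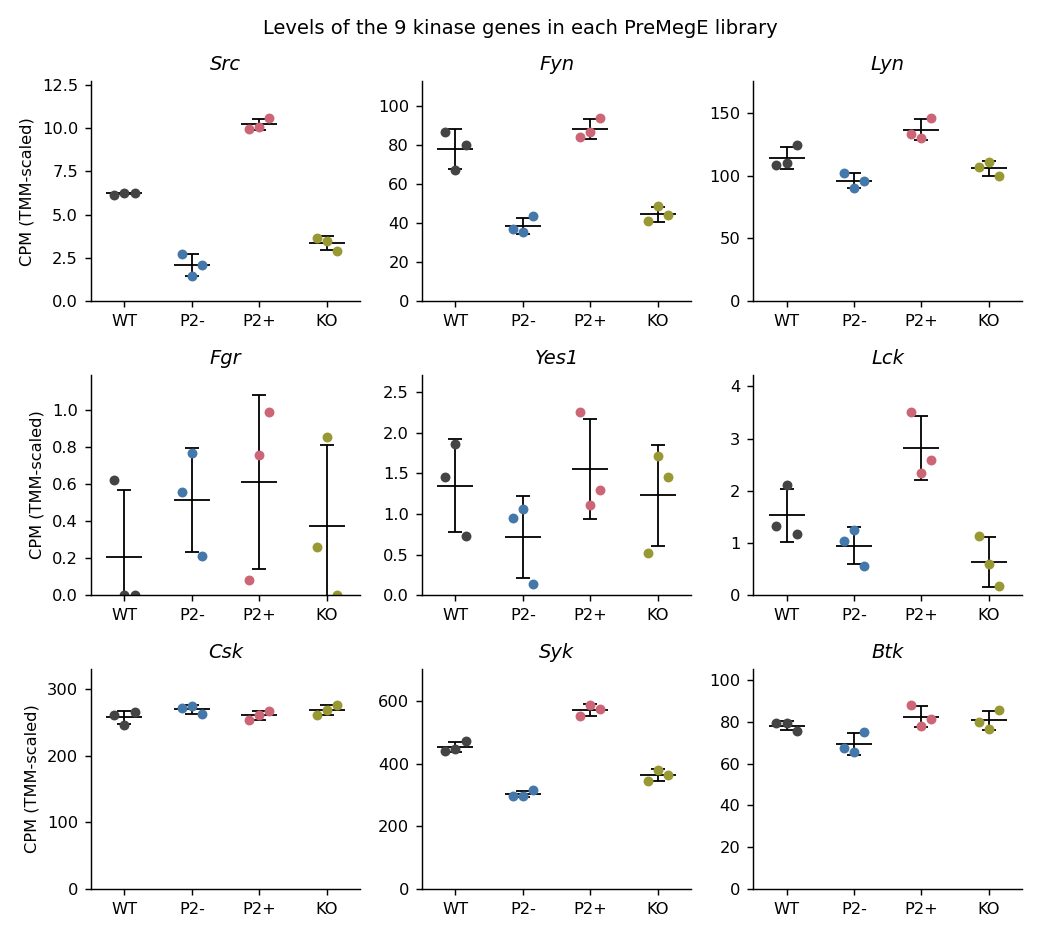
Level in CPM (vertical axes, TMM-scaled, starting at 0 and scaled separately for each gene) of the 9 kinase genes in the 12 libraries, by group. Points are libraries and the black marks are the mean ± SD (n = 3, cut at 0). Src lay between 9.97 and 10.6 CPM in the P2+ libraries, above all others, while the levels of Csk overlapped between all 4 groups.

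Between P2+ and P2- PreMegEs, which differ in the activity of the P2 reporter, 6 of the 8 genes that could be tested were higher in P2+ cells and none was lower. Src, Fyn and Lck differed by more than 2-fold, Syk by slightly less, and Lyn and Btk by smaller amounts. Csk, the restraining kinase, did not pass the test, and neither did Yes1. In this comparison 37.1% of all 12836 genes tested were changed and 20.1% were higher, so a single higher gene is a common event here, and 9.54% were at least 2-fold higher. The P2+ and P2- libraries with the same number are paired, and the test used here leaves out this pairing. With a replicate block the same 6 kinases were called, while 6514 of the 12836 genes were changed in place of 4762.

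Src, the founding member of its family, had 9.97, 10.1 and 10.6 CPM in the P2+ and 2.71, 1.44 and 2.12 CPM in the P2- libraries. The groups were far apart, with 15 to 34 counts per P2- library and 119 to 146 per P2+ library. The fold change was 4.88 (log2 fold change 2.29 ± 0.26 SE, adjusted p = 0.000185 in edgeR). Fyn, which acts below the collagen receptor and the platelet integrin, had 84.2, 86.7 and 94.0 CPM in P2+ and 36.8, 35.4 and 43.5 CPM in P2- libraries. Again no P2- library came near a P2+ library, with a log2 fold change of 1.21 (± 0.10 SE, adjusted p = 3.99e-05 in the same test). Lyn, which both activates and restrains signalling in blood cells, had 133, 129.8 and 146 CPM in P2+ and 102, 90.3 and 95.8 CPM in P2- libraries. Its difference was smaller, 0.52 on the log2 scale (± 0.08 SE, adjusted p = 0.00105 in the same test), though the groups did not overlap. Lyn shares 248 exonic bases with Gm26857 on the other strand, a gene with 0 to 13 counts per library.

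The remaining family members were scarce and their values rest on few counts. Lck, best known as the Src family kinase of T cells, had 42, 34 and 34 counts in P2+ and 13, 13 and 8 counts in P2- libraries (log2 fold change 1.59 ± 0.42 SE, adjusted p = 0.0157 in edgeR). This call rests on few reads and was lost without P2- replicate 3 (adjusted p = 0.0517) and without P2+ replicate 1 (adjusted p = 0.0625). Of 8 T and NK cell markers, none reached the level needed for a test, Cd3g and Cd8a had no count in any library, and the summed level was at most 2.01 CPM in P2+ and 0.557 CPM in P2- libraries. Yes1, a widely expressed relative of Src, had 27, 16 and 17 counts in P2+ and 12, 11 and 2 counts in P2- libraries, and its log2 fold change of 1.15 (± 0.65 SE) did not pass the test (adjusted p = 0.201). Both genes passed the filter on low values mainly through the libraries in which they are higher, so their place among the genes tested is no support for a difference. Fgr, a kinase of neutrophils and monocytes, had between 0 and 13 counts per library over the 12 libraries, never reached 1 CPM and was not tested. Yes1 shares 635 exonic bases with Gm10461 on the other strand, and since it is not stated whether the counting used the strand, its few counts are uncertain also in this respect.

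Syk was the kinase with the largest number of counts, at 551, 586 and 575 CPM in P2+ and 297, 297 and 314 CPM in P2- libraries. The libraries of each fraction lay close together and far from the other fraction, and the fold change was 1.90 (log2 fold change 0.93 ± 0.07 SE, adjusted p = 2.09e-05 in edgeR). Btk, which acts beside Syk in the activation of phospholipase C gamma, had 87.9, 78.0 and 81.4 CPM in P2+ and 67.3, 65.6 and 75.3 CPM in P2- libraries. The groups almost met without overlapping, and the log2 fold change of 0.26 (± 0.09 SE, adjusted p = 0.0431) did not pass the test without P2- replicate 1 (adjusted p = 0.126), P2- replicate 2 (0.111), P2+ replicate 1 (0.151) or P2+ replicate 3 (0.0967), nor without both libraries numbered 2 (0.0619), nor without the filter on low counts (0.0862), in edgeR, and its adjusted p was 0.100 in edgeR's exact test. Btk passed in 6 of the 13 alternatives, among them the replicate block (adjusted p = 0.0103 in edgeR). Csk had 254, 261 and 268 CPM in P2+ and 273, 275 and 262 CPM in P2- libraries. These ranges overlap, and the log2 fold change was -0.04 (± 0.07 SE, adjusted p = 0.725 in the same test).

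No overlap between P2+ and P2- libraries was found for Src, Fyn, Lyn, Syk and Btk, and at few counts for Lck and Yes1, beside 49.9% of all genes tested. In bulk samples, fewer cells of a type and less RNA per cell cannot be told apart, and several marker lists moved with the same contrast. Of 8 megakaryocyte markers 7 were higher in P2+ cells and none was lower, with a summed level of 753 to 1108 CPM in P2+ and 141 to 184 CPM in P2- libraries. Of the 9 neutrophil and monocyte markers tested 7 were higher, with a summed level of 294 to 444 CPM in P2+ and 61.0 to 107 CPM in P2- libraries. B cell markers summed to between 44.5 and 102 CPM in P2+ and between 18.2 and 26.6 CPM in P2- libraries, with 4 of 5 tested markers higher, and erythroid markers summed to between 192 and 291 CPM in P2+ and between 1230.1 and 1429 CPM in P2- libraries, with 5 of 6 lower. Of the 5 mast cell and basophil markers tested 4 were higher and 1 was lower, while their summed level was lower in P2+ (183 to 309.6 CPM) than in P2- libraries (375 to 425 CPM), and macrophage markers stayed at or below a summed 5.11 CPM in all libraries. The part of these cell types or states in the kinase differences was not tested.

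**Figure D2:**
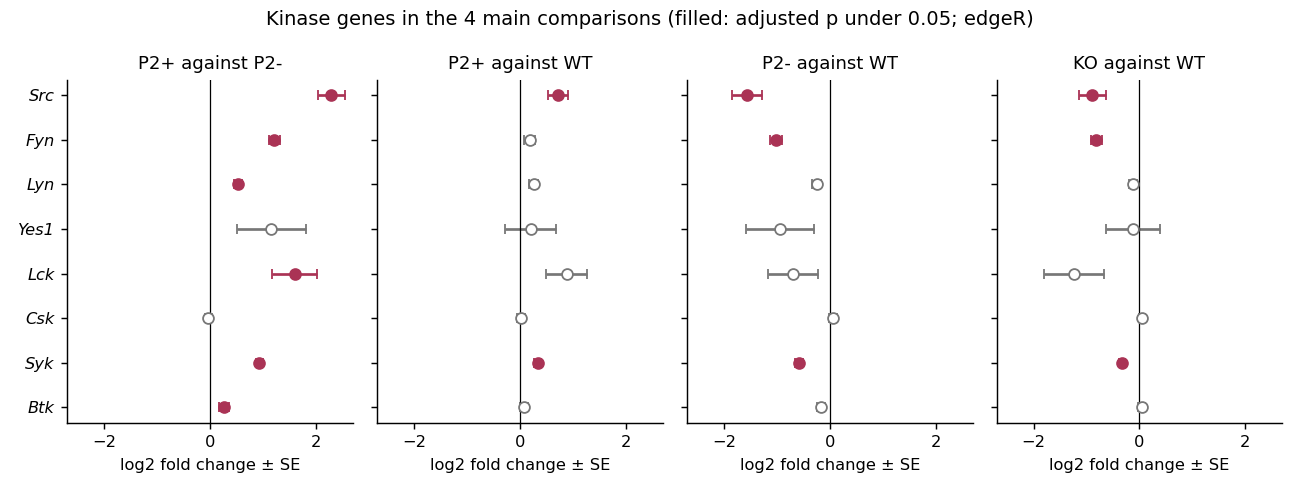
Log2 fold change ± standard error (horizontal axes) of the 8 tested kinase genes in the 4 main comparisons, in edgeR. Filled points have an adjusted p under 0.05: 6 genes are higher in P2+ than in P2-, and Src, Fyn and Syk are lower in P2- and in KO than in WT PreMegEs.

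WT PreMegEs, which were not divided by the reporter, had a mean CPM between those of both fractions for the kinases that differed, although single WT libraries of Fyn, Btk and Lck overlapped with a fraction. Compared with WT, 2 of the 8 genes tested were higher in P2+ cells, namely Src and Syk, and none was lower (16.5% of 12941 genes were changed, and 9.45% were higher). Src had 6.17, 6.25 and 6.26 CPM in WT, and its log2 fold change of 0.72 in P2+ cells (± 0.18 SE, adjusted p = 0.0230 in edgeR) was the larger of the 2. Of the 8 genes 4 did not overlap between P2+ and WT libraries, beside 35.5% of all genes. The call of Src depended on which libraries were used, as the adjusted p was 0.0693, 0.0728 and 0.0579 without WT replicates 1, 2 and 3, 0.0515 without P2+ replicate 1 and 0.0649 without P2+ replicate 3. Without P2+ replicate 2 Src passed (0.0349), and its log2 fold change stayed between 0.69 and 0.74. Syk had 439, 447 and 471 CPM in WT, below every P2+ library, with a log2 fold change of 0.34 (± 0.07 SE, adjusted p = 0.00644 in the same test), and it passed whichever library was left out. With edgeR's exact test instead its adjusted p was 0.0573. Lyn, at 108, 109.9 and 124 CPM in WT, was 0.26 higher on the log2 scale in P2+ cells without passing the test (± 0.08 SE, adjusted p = 0.0584), although the groups did not overlap, and it passed without WT replicate 3 (0.0427) or P2+ replicate 2 (0.0373), in the same test. Fyn, at 86.9, 67.1 and 80.2 CPM in WT, overlapped with P2+ (log2 fold change 0.18 ± 0.10 SE, adjusted p = 0.252 in edgeR). Lck had 19, 25 and 16 counts in WT, fewer than in each P2+ library, and its log2 fold change of 0.89 (± 0.39 SE, adjusted p = 0.148) was not called. Of 8 megakaryocyte markers 4 were higher and 1 was lower in P2+ than in WT cells, and of 8 neutrophil and monocyte markers tested 3 were higher. Of 6 erythroid markers tested 5 were lower, 4 of them by at least 2-fold, and of 5 mast cell and basophil markers tested 3 were higher and 1 was lower. The part of these lists was not tested.

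On the other side, 3 of the 8 genes tested were lower in P2- than in WT PreMegEs and none was higher (16.5% of 12767 genes were changed, and 9.60% were lower). Src was 2.95-fold lower (log2 fold change -1.56 ± 0.29 SE, adjusted p = 0.00509 in edgeR). Fyn was 2.02-fold lower (log2 fold change -1.01 ± 0.12 SE, adjusted p = 0.000304), and Syk 1.49-fold lower (log2 fold change -0.58 ± 0.07 SE, adjusted p = 0.000537). These 3 calls held whichever library was left out, and 5 of the 8 genes did not overlap between P2- and WT libraries, beside 35.1% of all genes. Lyn had a log2 fold change of -0.25 (± 0.08 SE, adjusted p = 0.0727 in the same test) with no overlap between the groups, and Btk one of -0.17 (adjusted p = 0.202). Yes1 and Lck had log2 fold changes of -0.94 and -0.70 with standard errors of 0.65 and 0.47 and did not pass (adjusted p = 0.370 and 0.360 in edgeR), at 2 to 25 counts per library. Megakaryocyte markers moved with this comparison too, with 7 of 8 lower in P2- cells and a summed level of 495 to 558 CPM in WT libraries, and so did neutrophil and monocyte markers, with 5 of the 8 tested lower and a summed level of 175 to 307 CPM in WT libraries. Of 6 erythroid markers tested 5 were higher in P2- cells, and of 5 B cell markers tested 3 were lower. Their part in the kinase differences was not tested.

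The comparison of KO with WT PreMegEs asked whether kinase levels differed where RUNX1C was missing. Again Src, Fyn and Syk were lower than in WT cells, 3 of the 8 genes tested, and none was higher (14.9% of 12784 genes were changed, and 8.76% were lower). Fyn had 41.0, 48.7 and 44.2 CPM in KO against 67.1 to 86.9 CPM in WT libraries. That is a 1.76-fold difference with no overlap (log2 fold change -0.82 ± 0.10 SE, adjusted p = 2.11e-05 in edgeR). Syk had 345, 381 and 364 CPM in KO libraries, all below WT, and was 1.25-fold lower (log2 fold change -0.33 ± 0.06 SE, adjusted p = 0.00113 in the same test). Src had 3.67, 3.51 and 2.91 CPM in KO libraries, or 42, 41 and 32 counts, and was 1.86-fold lower (log2 fold change -0.89 ± 0.25 SE, adjusted p = 0.0231 in the same test). The difference of Src did not pass without WT replicate 2 (adjusted p = 0.0647), KO replicate 2 (0.0560) or KO replicate 3 (0.0875), and those of Fyn and Syk passed whichever library was left out. None of the 3 reached the 2-fold minimum that the study used, as 3.41% of all genes did, and 4 of the 8 genes did not overlap between KO and WT libraries, beside 31.3% of all genes.

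The other kinases of KO cells did not pass the test against WT. Lyn had 107, 111 and 99.6 CPM in KO libraries, overlapping with WT (log2 fold change -0.12 ± 0.08 SE, adjusted p = 0.350 in edgeR). Btk had 79.7, 76.7 and 85.6 CPM in KO and 79.3, 79.2 and 75.6 CPM in WT libraries (log2 fold change 0.04 ± 0.07 SE, adjusted p = 0.791). Csk had 261, 269 and 276 CPM in KO and 261, 247 and 266 CPM in WT libraries (log2 fold change 0.05 ± 0.06 SE, adjusted p = 0.659). Lck had 13, 7 and 2 counts in KO libraries, below each WT library, but its log2 fold change of -1.24 (± 0.56 SE, adjusted p = 0.165) was not called. The value lay between -1.92 and -0.81 when a library was left out. Lck passed the filter on low values mainly through the WT libraries, so its place among the genes without overlap is no support for a difference. Megakaryocyte markers summed to between 321 and 346 CPM in KO libraries with 5 of 8 lower and 1 higher than in WT, erythroid markers to between 1127 and 1229.6 CPM against 826 to 863 CPM in WT libraries with 4 of 6 tested higher, and neutrophil and monocyte markers to between 80.4 and 131 CPM with 6 of 8 tested lower. Mast cell and basophil markers summed to between 419.8 and 508 CPM in KO and between 225 and 256 CPM in WT libraries, with 3 of 4 tested higher and none lower. The part of these lists in the kinase differences was not tested. Whether the KO libraries were made and sequenced together with the others is not given in the sources used here, so the genotype and any such difference cannot be told apart.

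KO cells were also set against both reporter fractions. These fractions differ from KO both in the Runx1 genotype and in the sort by hCD4, so the 2 cannot be told apart. None of the 8 genes tested was changed between KO and P2- PreMegEs by edgeR (1.61% of 12588 genes were changed), while 2 genes, Syk and Btk, had an unadjusted p under 0.05 (0.00249 and 0.0286). Syk was called by DESeq2 (adjusted p = 0.0167), in the fit of all 12 libraries (0.0356 in edgeR) and without P2- replicate 2 (0.0482 in edgeR). Its log2 fold change was 0.26 (± 0.07 SE, adjusted p = 0.0913 in edgeR with the 6 libraries of the comparison), and its KO and P2- libraries did not overlap. Src was 0.67 higher on the log2 scale in KO than in P2- cells with a standard error of 0.33 and did not pass (adjusted p = 0.354), though its libraries did not overlap either. In all, 3 of the 8 genes did not overlap between KO and P2-, beside 21.6% of all genes. Of 8 megakaryocyte markers 7 were higher in KO than in P2- cells. Against P2+ cells, 5 of the 8 genes tested were lower in KO cells (37.1% of 12807 genes were changed, and 20.3% were lower), and the same 5 did not overlap between the groups, beside 50.0% of all genes. Lck, with 2 to 13 counts per KO library, passed the filter on low values through the P2+ libraries, so its place among the 5 is no support for a difference. The others were Src (log2 fold change -1.61 ± 0.21 SE), Fyn (-0.997 ± 0.09 SE), Syk (-0.66 ± 0.06 SE) and Lyn (-0.38 ± 0.08 SE), with adjusted p between 1.25e-05 and 0.00309 in edgeR. Lck had a log2 fold change of -2.12 (± 0.52 SE, adjusted p = 0.00861), which lay between -2.82 (without KO replicate 1) and -1.71 when a library was left out. Of the markers, 7 of 8 megakaryocyte genes were lower and 1 was higher in KO than in P2+ cells, 5 of 6 erythroid genes were higher, 4 of 8 neutrophil and monocyte genes were lower, and 4 of 5 mast cell and basophil genes were lower and 1 was higher, and their part was not tested.

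Put in order, the mean CPM of Src, Fyn, Lyn and Syk was highest in P2+, followed by WT, KO and P2- PreMegEs. For Src and Syk both upper steps passed the test, P2+ against WT and WT against KO, and the step from KO to P2- did not. For Fyn the step from WT to KO alone passed. For Lyn no step between neighbouring groups passed the test, although the P2+ and WT libraries did not overlap, and P2+ passed against P2- and against KO. Btk had its lowest mean in P2- cells, and its other 3 groups lay between 78.1 and 82.4 CPM. On a CPM scale that runs from 0% at the mean of P2- to 100% at the mean of P2+ cells, the position of WT (mean ± SD, n = 3 here and below) was 50.9% ± 0.640 for Src, 55.9% ± 6.24 for Syk and 79.4% ± 20.3 for Fyn. KO lay at 15.7% ± 4.90 for Src, at 22.7% ± 6.58 for Syk and at 12.2% ± 7.71 for Fyn, so of these 3 genes Fyn had the largest distance between WT and KO on this scale. For Lyn the positions of WT (44.9% ± 21.5) and KO (24.5% ± 14.4) overlapped between libraries. For Btk, KO lay at 86.7% ± 34.8, spread around the P2+ mean.

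**Figure D3:**
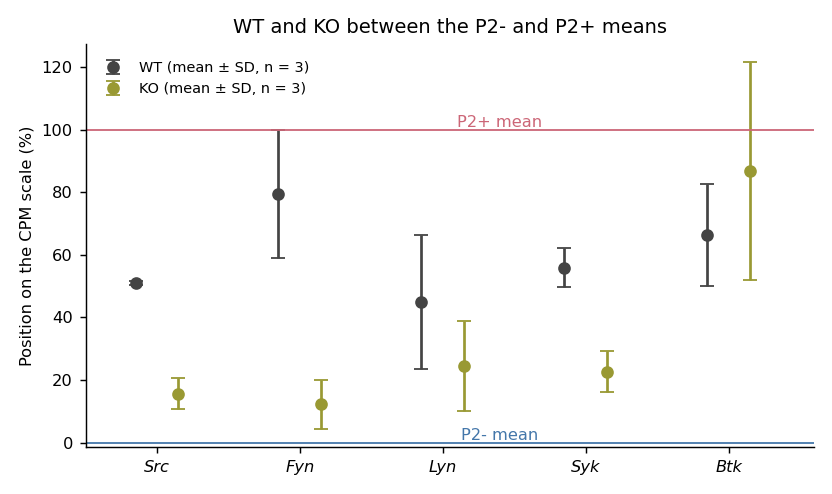
Position of WT and KO PreMegEs (vertical axis, percent of the CPM distance between the P2- and P2+ means) for 5 of the kinase genes changed between P2+ and P2-, as mean ± SD of 3 libraries. KO lies below WT for Src, Fyn, Lyn and Syk, at 12.2% to 24.5%, and above WT for Btk, at 86.7% with overlapping error bars.

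The make-up of the Src family transcripts was compared per length of the gene, with values as mean ± SD of 3 libraries. The summed level of the 6 family genes was 57.4 RPKM ± 3.24 in P2+, 48.1 RPKM ± 3.07 in WT, 37.5 RPKM ± 2.22 in KO and 33.4 RPKM ± 1.78 in P2- PreMegEs. Lyn made up most of it everywhere, with 58.3% ± 0.522 in P2+ and 58.3% ± 3.22 in WT, but 70.5% ± 1.70 in P2- and 69.4% ± 1.34 in KO cells. Fyn accounted for 35.3% ± 0.732 in P2+ and 37.1% ± 3.36 in WT, and for 26.4% ± 2.44 in P2- and 27.3% ± 1.67 in KO cells. Src contributed 4.08% ± 0.104 in P2+ cells and 1.42% ± 0.368 in P2- cells.

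Within a library, the ratio of Fyn to Lyn in RPKM was 0.605 ± 0.0176 in P2+, 0.641 ± 0.0953 in WT, 0.376 ± 0.0439 in P2- and 0.394 ± 0.0310 in KO cells. It did not overlap between P2+ and P2-, P2- and WT or KO and WT (p = 0.1 each in the two-sided exact permutation test, the smallest that 3 libraries against 3 allow), and it overlapped between P2+ and WT (exact p = 0.8). Adjusted over the 8 comparisons of ratios computed, the former p was 0.114. The ratio of Syk to Csk in RPKM, a pair chosen with their calls known and given as a description, was 0.873 ± 0.0200 in P2+, 0.700 ± 0.0262 in WT, 0.539 ± 0.0215 in KO and 0.448 ± 0.0257 in P2- cells. Both ratios follow the calls of single kinases, Fyn and Syk, and add no evidence of their own.

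**Figure D4:**
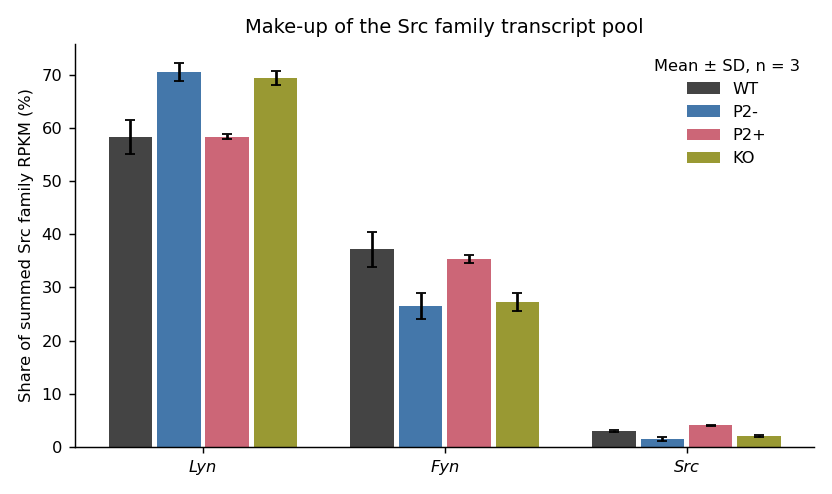
Share of Lyn, Fyn and Src (vertical axis, percent) in the summed RPKM of the 6 Src family genes in each group, as mean ± SD of 3 libraries. Lyn stands at 58.3% in both P2+ and WT, and at 70.5% and 69.4% in P2- and KO PreMegEs, with the opposite order for Fyn.

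The partners of these kinases were followed in a list of 69 pathway genes arranged by role, all of them in the count table. Between P2+ and P2- PreMegEs, 29 of the 57 tested were higher in P2+ cells (20.1% of all genes tested were) and 5 were lower. Of all genes tested, 37.1% were changed in either direction. Of the 29 higher genes 13 were so by at least 2-fold, and the median log2 fold change of the list was 0.35. With the replicate block, since the numbers pair these libraries, 35 were higher and 10 lower, where 6514 of all 12836 genes were changed in either direction. The number of lower genes depended on the libraries, with 2 called without P2+ replicate 1 and 3 without P2- replicate 1, P2+ replicate 2 or P2+ replicate 3. Ptpra, Ptpn6, Dok1, Grb2 and Pik3ca were the 5 lower genes without the block, named after their values were seen, with log2 fold changes of -0.45, -0.34, -0.44, -0.24 and -0.24. Of these, the phosphatase Ptpra opens the tail that Csk closes, Ptpn6 (Shp1) removes phosphate from the pathway, and Grb2 links it to Ras.

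Among receptors and their signalling chains, all 3 that could be tested of 6 were higher in P2+ cells. These were Pear1, a platelet receptor phosphorylated by Src family kinases (log2 fold change 1.96 ± 0.15 SE), the Fc receptor gamma chain Fcer1g on which Syk docks (1.05 ± 0.27 SE) and the adhesion receptor Pecam1 (0.80 ± 0.10 SE). The call of Fcer1g was lost without P2+ replicate 3 (adjusted p = 0.0531 in edgeR). Fcer1g had a mean of 8.06 CPM in WT and 6.47 CPM in P2+ cells, so unlike Src and Syk its level was not highest in P2+ cells.

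Of the adaptors and phospholipases, 9 of the 15 tested were higher and 1 was lower. Plcg2, the phospholipase C gamma that Syk and Btk activate, had a mean of 78.8 CPM in P2+, 47.6 CPM in WT, 31.4 CPM in KO and 22.6 CPM in P2- cells (log2 fold change between P2+ and P2- 1.81 ± 0.12 SE, adjusted p = 9.29e-06 in edgeR). Grap2 (Gads), an adaptor that holds the Lcp2 scaffold, had a log2 fold change of 2.14 (± 0.37 SE), and Vav3, an exchange factor for small GTPases, one of 2.04 (± 0.21 SE). Of the PI3 kinase genes, 3 of 7 were higher and 1 was lower, led by the regulatory subunit Pik3r5 (2.50 ± 0.33 SE), the adaptor Pik3ap1 (2.35 ± 0.43 SE) and the catalytic subunit Pik3cg (0.87 ± 0.10 SE). Pik3ap1 had a mean of 3.38 CPM in P2+ and 0.649 CPM in P2- cells, so it passed the filter on low values through the P2+ libraries, and its place among the changed genes is no support for a difference.

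Among the substrates in adhesion and the cytoskeleton, 5 of the 11 tested were higher and none was lower. Cttn (cortactin), a Src substrate at actin networks, had a mean of 82.3 CPM in P2+, 78.6 CPM in WT, 36.1 CPM in KO and 34.6 CPM in P2- cells (log2 fold change between P2+ and P2- 1.26 ± 0.11 SE). Wipf1 and Was, partners in actin branching, had smaller differences (0.51 ± 0.07 SE, and 0.35 ± 0.09 SE), and Was did not pass without P2- replicate 3 (adjusted p = 0.0504 in edgeR) or P2+ replicate 3 (0.0584).

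Some genes that restrain the pathway were also higher in P2+ cells. Of the 9 such brakes tested, 5 were higher, 1 was lower and 3 were not called. Sla and Sla2, adaptors that promote the removal of receptors and kinases, had log2 fold changes of 2.45 (± 0.17 SE) and 1.63 (± 0.31 SE), and the docking protein Dok3 one of 1.06 (± 0.25 SE). Of the 10 regulators of the kinase tail, 4 were higher and 2 lower. Ptpn22, a phosphatase that works with Csk (1.42 ± 0.12 SE), Pag1, the membrane anchor of Csk (0.97 ± 0.16 SE), and Matk, the Csk homologue (0.70 ± 0.11 SE), had the largest differences. Of the relatives of Syk and Btk, Tec had 18.7 CPM in P2+ and 18.1 CPM in P2- cells on average (log2 fold change 0.06 ± 0.13 SE), and Zap70, Bmx and Txk were not tested in any comparison.

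**Figure D5:**
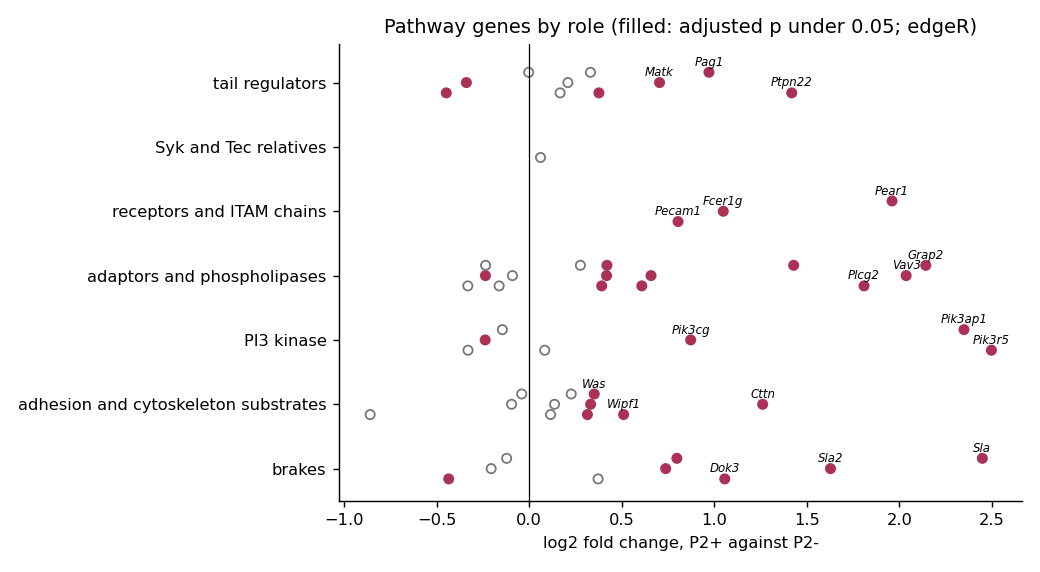
Difference of P2+ from P2- PreMegEs as log2 fold change (horizontal axis) of the tested pathway genes in 7 roles, arranged in rows by role, with up to 3 named per role. A single tested gene of the remaining role, without a call, is not shown. Filled points have an adjusted p under 0.05 in edgeR, 29 higher and 5 lower in P2+ cells.

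Against WT, 13 of the 57 pathway genes tested were higher in P2+ cells (9.45% of all genes were) and 2 were lower, with 8 higher without WT replicate 1 and 7 without WT replicate 2. In this comparison 16.5% of all genes were changed in either direction. Of lower genes, 1 was called without WT replicate 1, 2 or 3 or P2+ replicate 1, and 3 without P2+ replicate 2. The larger folds were those of Pik3ap1 (log2 fold change 1.48 ± 0.41 SE) and Vav3 (1.02 ± 0.14 SE). Pik3ap1, with 0.676 to 1.60 CPM in WT libraries, again passed the filter on low values through the P2+ libraries, so its call is no support for a difference, and it did not pass the test without WT replicate 1 (adjusted p = 0.0811), WT replicate 2 (0.109), P2+ replicate 1 (0.0836) or P2+ replicate 2 (0.0680), in edgeR. In P2- cells 19 of 55 were lower than in WT (9.60% of all genes were) and none was higher, led by Grap2 (-1.91 ± 0.32 SE) and Pik3r5 (-1.63 ± 0.35 SE), the latter not past the threshold without WT replicate 1 (adjusted p = 0.0537). In KO cells 13 of 57 were lower than in WT (8.76% of all genes were) and 4 were higher (14.9% of all genes were changed in either direction). Of higher genes, 2 were called without WT replicate 3 or KO replicate 1, 1 without WT replicate 2 or KO replicate 2 and in the fit of all 12 libraries, and 0 without KO replicate 3. The changes were led by Sla2 (-2.49 ± 0.30 SE) and Grap2 (-1.38 ± 0.27 SE). Sla2 had a mean of 1.51 CPM in KO, below the 3.14 CPM of P2- cells. Between KO and P2- cells Sla (0.85 ± 0.15 SE, adjusted p = 0.0212) and Pear1 (0.76 ± 0.10 SE, adjusted p = 0.00593) were the 2 changed genes of 57 tested (1.61% of all genes were changed), both higher in KO, with neither passing without KO replicate 1 or KO replicate 2 and Sla also not without KO replicate 3 or P2- replicate 1, while 5 genes were called without P2- replicate 2, 8 by DESeq2 and 7 by edgeR's exact test. Between KO and P2+ cells 27 of 57 were lower in KO (20.3% of all genes were) and 8 higher, or 4 higher without KO replicate 2. Here 37.1% of all genes were changed in either direction. The changes of the list were led by Sla2 (-2.66 ± 0.30 SE) and Grap2 (-1.60 ± 0.32 SE).

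Finally, the genes whose pattern over the 12 libraries was most like that of each kinase were sought among the 10727 other genes with a mean of at least 5 CPM (10728 for Lck and Yes1), by Pearson's r of log2 CPM. The libraries of a group share their genotype and sort, so r is a description only. Plcg2, which acts directly below Syk, was the gene most like Syk (r = 0.994), followed by Tmem176b (0.993). Src was most like Uaca and Cpd (both 0.989), Fyn like Mfge8 (0.988) and Lysmd2 (0.982), and Lyn like the mitotic kinase Plk1 (0.981) and the spindle gene Ckap5 (0.971). Lck was most like Wwc2 (0.933) and Usp28 (0.932), Btk like Gm15753 (0.907) and Tti1 (0.894), Csk like Eefsec (0.864) and Pigyl (0.863), and Yes1 like Btbd7 (0.860) and Pard6a (0.859). Among the kinases themselves, Src and Syk were the most alike pair (r = 0.968), Src and Fyn had an r of 0.935 and Fyn and Syk one of 0.949, while Csk had an r of -0.550 with Src and of -0.475 with Syk.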

How the data were processed

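PreMegE RNA was sequenced as strand-specific, paired poly(A) libraries, and the authors aligned the reads to GRCm38 with Bowtie2, ran featureCounts on Ensembl genes and deposited the unnormalized whole-number counts of each library. The study describes these steps for the WT, P2- and P2+ libraries, and the same steps are assumed for KO. Whether counting used the strand and how multiply aligned reads were treated is not given in the sources used here. No reads were realigned.

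Each comparison used its 6 libraries, genes that reached 1 CPM in 3 or more of them, TMM scaling and edgeR 4.0.16 (quasi-likelihood F-test on group, Benjamini-Hochberg over all genes tested, R 4.3.3), tested on simulated data. A change needed an adjusted p under 0.05, without the study's 2-fold minimum. Pathway genes are named by rule, up to 3 changed genes per role with the largest fold for P2+ against P2-, and up to 2 in each other comparison. Some genes of the pathway list are not reported here by name, though its counts include them. The kinases and all lists were chosen with earlier results of these data known. Replicates were pools of separate mice. Libraries of P2+ and P2- with the same number deviated together from their group means (r of 0.386, 0.572 and 0.405 across genes), so the numbers pair these samples. The main test does not use this pairing, and the replicate block does. Alternatives were DESeq2 1.42.0 size factors and Wald test, edgeR's exact test, no low count filter, a 2-fold minimum, 1 fit of all 12 libraries, a replicate block and leaving out libraries.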

Additional observations from a re-analysis of the deposited data

How the results depend on the processing

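Of the log2 fold changes of kinases and named pathway genes under the alternatives, 887 kept their direction and side of the threshold, 33 lost their call, 8 gained one and 10 changed sign. The sign changes were those of genes without a call when a library was left out. Their ranges were -0.0086 to 0.042 for Csk and -0.15 to 0.50 for Yes1 in P2+ against WT, -0.45 to 0.24 for Yes1 and -0.0049 to 0.073 for Btk in KO against WT, -0.031 to 0.0094 for Csk in KO against P2-, and -0.66 to 0.023 for Yes1 in KO against P2+. With a 2-fold minimum, 3 kinases remained called in P2+ against P2-, 0 in P2+ against WT, 2 in P2- against WT, 0 in KO against WT and 2 in KO against P2+, since a stricter threshold can only lower the counts, and the number of all genes called fell to 1626, 497, 597, 436 and 1454, and to 64 in KO against P2-. Leaving out a library gave 4 to 6 kinases in P2+ against P2-, 1 to 3 in P2+ against WT, 2 to 3 in KO against WT and 0 to 1 in KO against P2-. With edgeR's exact test 1 kinase was called in P2+ against WT. In KO against P2-, 1 kinase was called with DESeq2's Wald test and 1 in the fit of all 12 libraries, and the cause was not tested. For all genes, the count in P2+ against WT was 1243 without WT replicate 1 and 1225 without WT replicate 2 (2138 with all libraries), in P2- against WT 1121 and 1170 without the same libraries (2101), and in KO against WT 1189 without KO replicate 3 (1910). In KO against P2-, where edgeR called 203 genes, it was 490 with DESeq2, 359 with the exact test, 465 without the low count filter and between 41 and 401 with a library left out.

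The replicate block left 6 kinases in P2+ against P2- (6514 genes in place of 4762) and changed no kinase call there. In the other comparisons the samples share only a number, and the replicate block gave 2 kinases in P2+ against WT, 3 in P2- against WT, 3 in KO against WT, 0 in KO against P2- and 5 in KO against P2+ (1901, 1469, 2091, 102 and 4525 genes). On the raw library size, the WT mean of Src was 6.32 CPM. With a prior count of 0.5, Pard6a replaced Btbd7 as most like Yes1 (r of Btbd7 0.844) and Usp28 replaced Wwc2 as most like Lck (r of Wwc2 0.923). Src, Lck, Yes1 and Fgr had under 150 counts in every library, which limits their precision.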

Other observations

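The 9 kinase genes together held from 0.0745% to 0.119% of all counts in a library. Zap70, the T cell relative of Syk, had a mean of 0.389 CPM in P2+ cells and no count in any P2- or KO library. Zap70 did not reach the level needed for a test, and the 8 T and NK cell markers summed to between 0.686 and 2.01 CPM in P2+, between 0.676 and 1.02 CPM in WT, and at most 0.557 CPM in P2- and 0.684 CPM in KO libraries. Of these markers, Cd3g and Cd8a had no count in any library, and 5 of 8 had at most 3 counts in every library of P2+, 6 in WT, 7 in P2- and 7 in KO cells.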
